A study of Mus musculus with 7 samples.

Results

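Procr, Fgd5, Ctnnal1, Pdzk1ip1, Trpc6, Sult1a1 and Ifitm1 are genes whose RNA or reporter alleles are used to mark hematopoietic stem cells in the mouse. These 7 genes were taken by symbol from the 32285 genes of the deposited tables, and all 7 were present. They were read in single bone marrow cells of the LSK kind, which are sorted as lineage-negative cells with the surface proteins Sca-1 and cKit and hold stem cells together with several kinds of progenitors. Of the 7 libraries, 3 were labelled B4galt1 KO, from mice of the mixed background 129S1/C57Bl/6 with the allele entry B4-/-, and 4 were labelled WT, from the same background with no allele entry. The series describes the knockout as a full one. Age, sex and the number of mice behind a library are not given in the labels, so p-values measure the spread between these libraries, which may be technical. The product of B4galt1 is a galactosyltransferase that extends the glycans of proteins.

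Hematopoietic stem cells are rare, mostly out of cycle, and lose many of their marker transcripts as they turn into multipotent, lymphoid and myeloid progenitors. No single transcript defines them, and several of the genes used as markers are also expressed by endothelial or mature blood cells. Procr encodes the endothelial protein C receptor, a surface protein used to sort stem cells as EPCR+ cells. Fgd5 encodes an exchange factor for the small GTPase Cdc42, and its locus has been used for a stem cell reporter. Ctnnal1 encodes alpha-catulin, a relative of alpha-catenin whose locus has also been used for a reporter. Pdzk1ip1 encodes the small membrane protein MAP17, Trpc6 a calcium-permeable cation channel, Sult1a1 a sulfotransferase that acts on phenols, and Ifitm1 a membrane protein of the interferon-induced Ifitm family.

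Kept cells numbered 3072, 1725 and 6855 in the knockout-labelled libraries and 1244, 1172, 1500 and 8862 in the wild-type-labelled ones, and libraries held between 14970791 and 89747946 UMIs (transcript molecules told apart by their tags). The libraries stood apart by their barcodes: knockout replicate 3 and WT replicate 4 used one list of barcode openings (list B), the other 5 libraries another (list A), and the ribosomal protein share of UMIs was 31.6% and 31.8% in list B against 14.7% to 22.3% in list A. Each list held both labels, and the list was a covariate in every comparison of labels within 1 set of cells. The test of label differences between gates had the library as a block instead. The 2 libraries of list B shared 68 kept barcodes, 0.992% and 0.767% of their kept cells, and no other pair shared more than 2. RNA of B4galt1 did not separate the labels over all 7 libraries: it stood at 51.2, 55.6 and 27.4 UMIs per 1000000 UMIs of the sum (CPM) in the knockout-labelled libraries and at 56.4, 69.2, 56.7 and 34.8 in the wild-type-labelled ones. Within each list the knockout-labelled values were the lower ones, in list A by as little as 55.6 against 56.4. The difference did not pass the test (log2 difference -0.14, SE 0.12, edgeR adjusted p 0.537), and no label says which exons were removed. Libraries are therefore called knockout-labelled or wild-type-labelled.

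Cells were sorted into gates by the UMIs of other marker genes, none of which is among the 7. The stem gate held cells with at least 3 UMIs of Hlf and Mecom, transcription factor genes of stem cells, and 0 UMIs of Flt3, a receptor gene of multipotent progenitors, after cells with markers of a more mature fate had been removed. It was split by 6 mitosis genes into a part with at most 1 of their UMIs, called the quiescent stem gate, and a part with at least 3, called the cycling stem gate. The quiescent stem gate held 359, 289 and 896 knockout-labelled and 146, 189, 161 and 1152 wild-type-labelled cells. The Flt3 gate, with at least 3 UMIs of Flt3 and no other fate marker, held 335, 158 and 960 against 229, 270, 470 and 2153 cells. Per library, 5 to 201 cells had a stem sum of exactly 3, just inside the gate, and 4 to 178 had a sum of 2, just outside. A further 373 to 3058 reached the sum but held Flt3 UMIs. They were left out of the stem gate only, and went to the Flt3 gate or to the cells that no gate took. The Flt3 gate is thus not free of the stem genes: Hlf stood there at 271 to 658 CPM, against 324 to 1078 in the quiescent stem gate. A gate is a range of marker counts, not a purified cell type.

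The sequences in front of the start sites of Sult1a1, Pdzk1ip1 and Trpc6 are shown because these 3 genes differed most between the quiescent stem gate and the Flt3 gate. Each is the 250 bases before the RefSeq start site on GRCm38.p6, read 5′ to 3′ on the gene's strand: Sult1a1 at chr7:126676419-126676668 on the minus strand, Pdzk1ip1 at chr4:115088458-115088707 on the plus strand, and Trpc6 at chr9:8543892-8544141 on the plus strand. Capitals mark matches, on either strand, to 6 patterns that resemble the sites of blood transcription factors. The E-box was searched as CAGCTG. The site of the ETS family was searched as AGGAAG. The site of the PAR bZIP family, to which the gate gene Hlf belongs, was searched as TTANGTAA, with any base at N. The site of GATA factors was searched as AGATAA. The site of RUNX factors was searched as TGTGGT. The interferon response element was searched by its usual core, a pair of GAAA runs with 2 free bases between.
Sult1a1: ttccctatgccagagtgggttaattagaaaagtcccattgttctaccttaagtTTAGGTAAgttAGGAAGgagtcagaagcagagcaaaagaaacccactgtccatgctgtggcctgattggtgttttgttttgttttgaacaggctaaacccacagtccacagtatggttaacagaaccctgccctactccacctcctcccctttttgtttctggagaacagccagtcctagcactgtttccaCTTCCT
Pdzk1ip1: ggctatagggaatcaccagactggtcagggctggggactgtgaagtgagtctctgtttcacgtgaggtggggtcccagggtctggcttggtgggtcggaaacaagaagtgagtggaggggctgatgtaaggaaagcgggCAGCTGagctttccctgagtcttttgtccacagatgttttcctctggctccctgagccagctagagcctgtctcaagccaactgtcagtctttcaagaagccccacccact
Trpc6: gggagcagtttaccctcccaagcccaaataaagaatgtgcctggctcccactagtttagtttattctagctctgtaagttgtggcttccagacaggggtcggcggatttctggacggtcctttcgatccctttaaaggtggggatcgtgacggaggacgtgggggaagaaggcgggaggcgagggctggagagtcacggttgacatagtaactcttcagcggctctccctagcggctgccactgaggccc

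Each of the 7 genes matched a RefSeq window of this kind. The Sult1a1 window held the PAR bZIP letters, which 2.06% of 32851 such windows hold, and 2 matches to the ETS letters, which 29.5% hold. The free base of the PAR bZIP match is a purine, whereas the usual site of these factors has a pyrimidine there. The E-box in the Pdzk1ip1 window was shared by Procr and is in 13.001% of windows, and Fgd5 held the ETS letters too. No window of the 7 held the GATA letters (9.99% of all windows), the RUNX letters (14.0%) or the interferon response letters (2.98%). A match is a description of letters, and none of the 6 patterns was in more than 2 of the 7 windows.

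All 7 genes were higher in the quiescent stem gate than in the Flt3 gate of the same libraries. In this comparison edgeR called 36.8% of 11097 genes in either direction and 17.7% as higher, so a call by itself is common here. The sizes depended on the gates: with gates set on cells thinned to equal depth the log2 differences of Sult1a1, Pdzk1ip1 and Trpc6 were 2.55, 1.38 and 1.16, in place of 3.87, 2.00 and 1.77, and stayed the 3 largest. The median log2 difference was 1.17 over the 7 and 0.0039 over all genes. The Flt3 gate was not split by mitosis genes, so the cell cycle differs between the gates together with the stem genes.

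Sult1a1 had the largest difference of the 7. It lies at chr7:126672865-126676432 on the minus strand. Its CPM in the quiescent stem gate was 14.6, 8.53 and 15.8 in knockout replicates 1 to 3 and 15.3, 13.1, 10.3 and 12.9 in WT replicates 1 to 4. In the Flt3 gate it was 2.82, 0 and 0.622 against 0.879, 0.735, 0.569 and 0.855, where the 0 allows up to 2.60 CPM. Every stem value was above every Flt3 value, and knockout replicate 1 was the only library above 1 CPM in the Flt3 gate. The log2 difference was 3.87 (SE 0.23, edgeR adjusted p 6.75e-18), higher in 7 of 7 libraries. Only its stem sums carried it past the filter on low counts, which it failed in the Flt3 gate by itself. This p is therefore no separate support for the levels. The gene rested on few molecules, 270 UMIs in the quiescent stem gate and 40 in the Flt3 gate of all libraries, and 35.3% to 54.3% of its UMIs came from the quiescent stem gate, which gave 4.38% to 8.10% of all UMIs. It overlaps Sgf29 on the opposite strand, whether counting used the strand is not given in the sources used here, and 6.58% of its 50-base words also occur in Gm6939.

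Pdzk1ip1 followed. It lies at chr4:115088708-115093899 on the plus strand, and had a log2 difference of 2.00 (SE 0.091, edgeR adjusted p 1.56e-20, higher in 7 of 7 libraries). Its CPM in the quiescent stem gate was 54.6, 45.7 and 156 under the knockout label and 58.6, 55.6, 65.8 and 145 under the wild-type label. In the Flt3 gate it was 19.1, 9.55 and 41.5 against 5.71, 16.5, 16.1 and 34.6. In both gates the 2 highest values were those of the list B libraries, while the ratio between the gates was at least 2.86 in every library.

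Trpc6, at chr9:8544142-8680741 on the plus strand, had the most UMIs of the 7 after Ifitm1. Its CPM in the quiescent stem gate was 109, 265 and 135 under the knockout label and 442, 608, 282 and 166 under the wild-type label. In the Flt3 gate it was 21.9, 72.9 and 50.1 against 134, 198, 71.4 and 46.6. WT replicate 2 was highest and knockout replicate 1 lowest in both gates. The ratio between the gates, 2.69 to 4.96, spanned less than the levels, and the log2 difference was 1.77 (SE 0.068, edgeR adjusted p 3.24e-23, higher in 7 of 7 libraries). A lincRNA, Gm32014, lies on its other strand.

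Fgd5, at chr6:91978878-92076004 on the plus strand, and Procr, at chr2:155751117-155755471 on the plus strand, were each a little over 1 log2 unit higher in the quiescent stem gate. Fgd5 stood there at 31.2, 55.8 and 18.5 CPM under the knockout label and at 59.9, 69.8, 71.5 and 26.9 under the wild-type label, against 19.4, 12.2 and 11.3 and 17.1, 31.2, 29.4 and 11.9 in the Flt3 gate (log2 difference 1.17, SE 0.11, edgeR adjusted p 8.60e-11). Procr stood at 50.7, 27.9 and 65.8 and at 66.2, 39.3, 64.0 and 93.8, against 19.4, 6.95 and 33.7 and 25.9, 24.2, 34.5 and 43.3 (log2 difference 1.09, SE 0.085, edgeR adjusted p 2.29e-14). Both were higher in the stem gate in 7 of 7 libraries. In the quiescent stem gate the list B libraries averaged 22.7 CPM of Fgd5 and 79.8 of Procr, and the list A libraries 57.6 and 49.6, so the 2 genes did not rank the libraries alike.

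Ctnnal1 and Ifitm1 had the smallest differences. Ctnnal1, at chr4:56810935-56865188 on the minus strand, was nearly level across libraries in the quiescent stem gate, at 14.6, 17.8 and 13.1 CPM under the knockout label and 15.3, 17.5, 15.05 and 13.7 under the wild-type label. Its Flt3 gate values of 15.04, 9.55 and 5.18 against 13.2, 11.02, 7.97 and 6.18 overlapped the stem values, and in knockout replicate 1 the Flt3 gate was slightly higher. The log2 difference was 0.86 (SE 0.15, edgeR adjusted p 1.22e-05, higher in 6 of 7 libraries), but 0.45 in the libraries of list A alone, where it missed the threshold (edgeR adjusted p 0.107). Ifitm1, at chr7:140967221-140969825 on the plus strand, was abundant in every gate: 1476, 667 and 2199 CPM against 824, 426, 825 and 1776 in the quiescent stem gate, and 1333, 451 and 1605 against 442, 351, 631 and 995 in the Flt3 gate. Its log2 difference was 0.51 (SE 0.073, edgeR adjusted p 3.63e-06, higher in 7 of 7 libraries), and its values in the 2 gates overlapped across libraries.

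**Figure D1:**
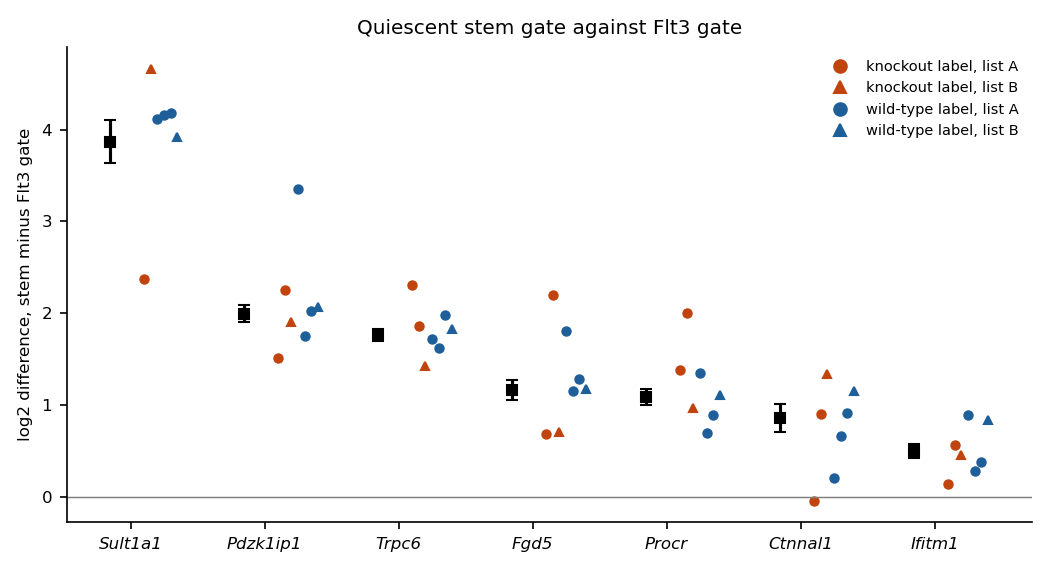
Difference in level between the quiescent stem gate and the Flt3 gate, in log2 units, for the 7 genes in order of size. Black squares are the edgeR estimates with bars of 1 SE, from 3.87 for Sult1a1 to 0.51 for Ifitm1, and coloured points are the plain CPM ratios of single libraries, except that of Sult1a1 in knockout replicate 2, which had 0 UMIs in the Flt3 gate.

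Other genes used to mark stem cells moved with the 7. Of 30 such genes, 22 were tested, 20 were higher in the quiescent stem gate, where 17.7% of all genes were, and 0 were lower, with a median log2 difference of 0.96. Among those with the smallest p were Socs2, a suppressor of cytokine signalling (2.10, edgeR adjusted p 8.38e-20), and Esam, an adhesion molecule used to sort stem cells (1.68, edgeR adjusted p 9.30e-18). Neo1 (0.72, edgeR adjusted p 0.0830) and Ubl3 (0.077, edgeR adjusted p 0.474) did not pass. These lists were chosen with earlier results of the data known and are no independent evidence of direction. Of 8 genes of endothelial cells, which express Procr and Fgd5 too, Cdh5 and Lyve1 had 0 UMIs in the quiescent stem gate, Plvap, Stab2 and Flt4 had 3, 4 and 8, Cldn5 had 64 (0 to 4.63 CPM) and Kdr had 75 (0 to 6.03 CPM). Emcn, also a gene of stem cells, stood at 31.7 to 51.7 CPM there, and the summed level of the 8 was 37.1 to 46.6 CPM under the knockout label and 39.5 to 58.3 under the wild-type label. Of 7 stromal genes, Col1a1 and Col3a1 had 0 UMIs there, Col1a2 was present in all 7 libraries at 2.93 to 8.73 CPM, Pdgfra reached 21.8 CPM in 1 library and was at 0 in 5, and the sum was 3.90 to 8.53 CPM under the knockout label and 4.07 to 33.8 under the wild-type label. The part of these genes in the results was not tested.

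Every library filled the same 8 gates. The quiescent stem gate was the highest of them in 7 of 7 libraries for Procr, Fgd5, Pdzk1ip1, Trpc6 and Ifitm1. It was so in 6 for Sult1a1 and in 2 for Ctnnal1. The 8 include a set of remaining cells left over by the other gates, 20.2% to 28.9% of the kept cells of a library. Against these the median ratio of the stem level was 1.84 for Procr, 1.60 for Fgd5, 2.03 for Pdzk1ip1 and 2.06 for Trpc6. It was 4.72 for Sult1a1, 1.31 for Ifitm1 and 1.21 for Ctnnal1. At the other end stood cells with lymphoid or granule transcripts. Procr had 0 to 4.56 CPM in the lymphoid gate (Il7r, Rag1 or Rag2) and 2.49 to 9.07 in the granule gate (Elane, Prtn3 and Ctsg). Trpc6 had 1.17 to 48.6 CPM in the granule gate, and its stem level was a median of 51.8 times as high. Ifitm1 kept 161 to 727 CPM in the granule gate, and its stem level was a median of 2.66 times as high. These levels are descriptions without a test.

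In the cycling stem gate the genes did not all move alike. All libraries had lower Procr there than in the quiescent stem gate, at 12.9, 12.9 and 16.2 CPM under the knockout label and 17.5, 14.4, 40.1 and 28.4 under the wild-type label, which was above the Flt3 gate in 2 of 7 libraries only. Ifitm1 was below its Flt3 gate level in all 7 libraries. Pdzk1ip1 and Trpc6 were above the Flt3 gate in 7 of 7 libraries, at 29.2 to 70.6 and 60.1 to 287 CPM, although below the quiescent stem gate in 7 of 7. Ctnnal1 went the other way, with higher CPM in the cycling than in the quiescent stem gate in 5 of 7 libraries. The cycling stem gate held 38 to 90 cells in the list A libraries, where Procr rested on 7 to 20 UMIs per library. These comparisons of levels were not tested. The median cycling cell held more UMIs than the median quiescent one in each library, and the split itself counts UMIs, so depth moves with it; its part was not tested.

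Cells with megakaryocyte, MHC class II or erythroid transcripts filled a gate in the list B libraries only, so they are given as the pair of knockout replicate 3 and WT replicate 4 and were not tested. In the megakaryocyte gate (142 and 75 cells) Trpc6 stood at 287 and 187 CPM and Ctnnal1 at 23.7 and 20.3, above the 135 and 166 and the 13.1 and 13.7 of the quiescent stem gate. Pdzk1ip1 stood there at 128 and 81.1 CPM, somewhat below the stem gate, whereas Procr (3.83 and 14.6) and Fgd5 (3.83 and 3.24) were far below theirs (65.8 and 93.8, and 18.5 and 26.9). The MHC class II gate (36 and 155 cells) had Procr at 31.5 and 53.6 CPM and Sult1a1 at 17.0 and 8.02, the latter from 7 and 16 UMIs. Sult1a1 stood at 15.8 and 12.9 CPM in the quiescent stem gate of these libraries. The erythroid gate (161 and 196 cells) had Procr at 6.17 and 5.72 CPM, Fgd5 at 2.47 and 2.86, and 0 UMIs of Sult1a1 in both libraries. Beside megakaryocyte transcripts, then, Trpc6, Ctnnal1 and Pdzk1ip1 had high levels and Procr and Fgd5 did not. Trpc6 and Pdzk1ip1 were also detected in the erythroid and MHC class II gates, in the shares of cells given below.

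**Figure D2:**
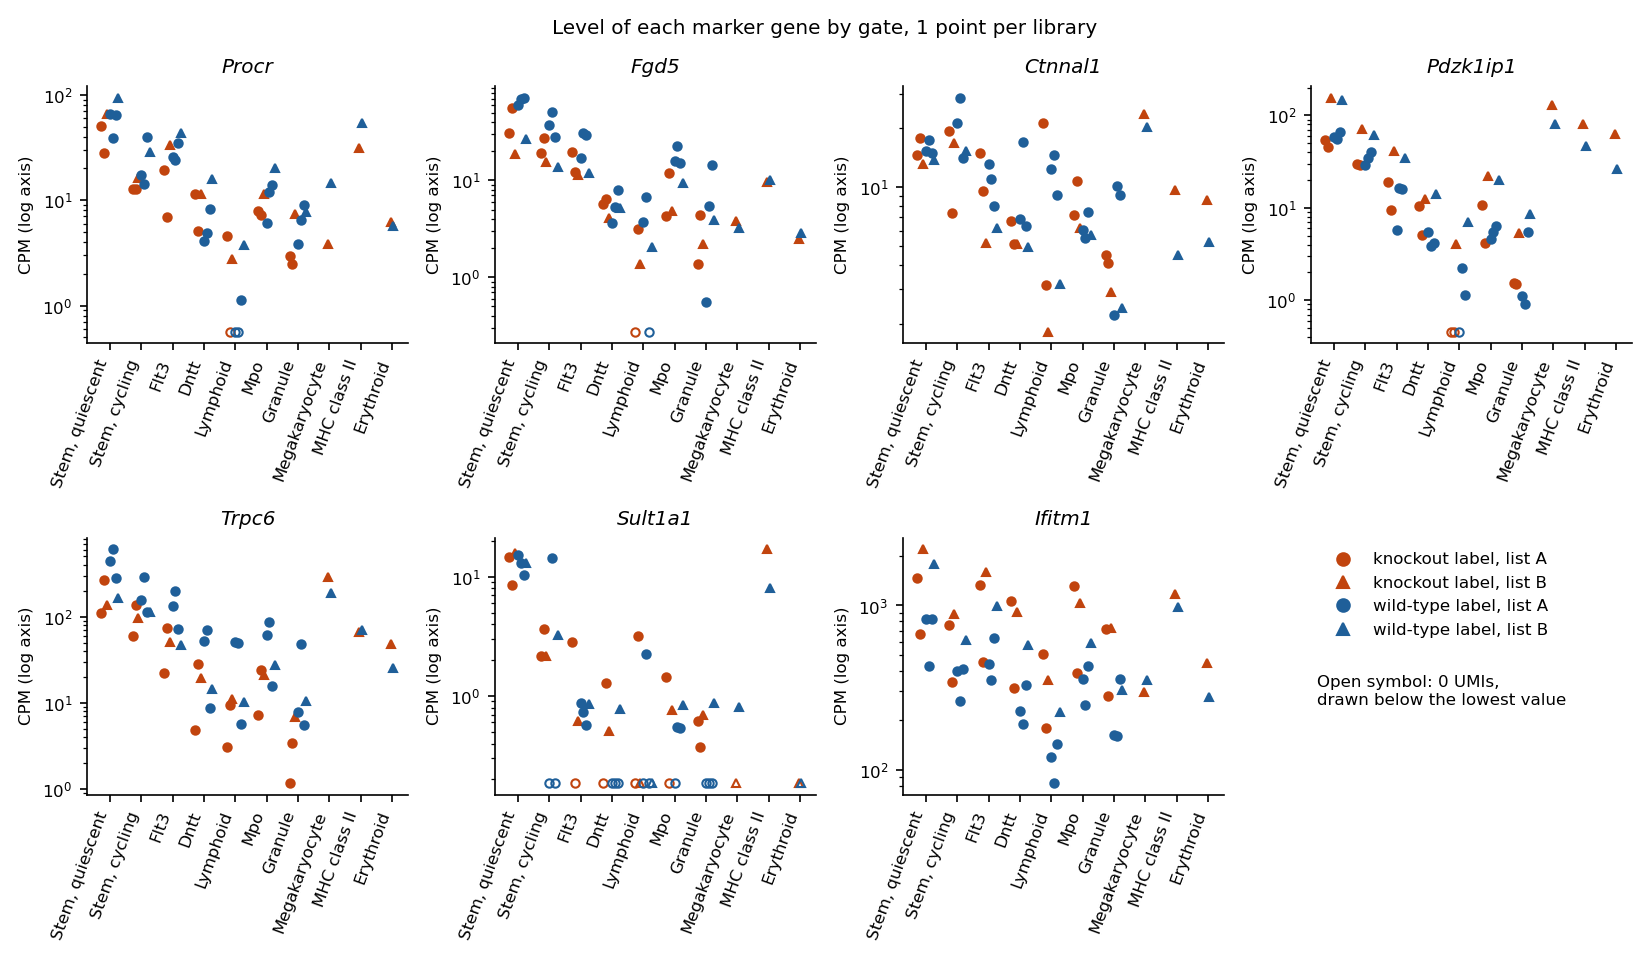
CPM of each gene on a log axis, by gate, with 1 point per library; gates with fewer than 20 cells in a library have no point. Most genes are highest in the quiescent stem gate. Within the list B pair Trpc6 and Ctnnal1 are higher in the megakaryocyte gate (287 and 187 CPM, and 23.7 and 20.3) than in the quiescent stem gate. Sult1a1 in the MHC class II gate is above its quiescent stem level in knockout replicate 3 (17.0 against 15.8 CPM). In WT replicate 4 it is below (8.02 against 12.9). Ifitm1 is at 83.1 CPM or more in every gate shown. Open symbols stand for 0 UMIs and are drawn below the lowest value.

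Cells were thinned to 3000 UMIs each to compare how many of the 7 genes 1 cell showed, which left out 45 to 169 shallower kept cells per library. Cells with 3 or more of the 7 made up 16.1%, 12.96% and 26.6% of the quiescent stem gate in the knockout-labelled libraries and 30.4%, 24.6%, 22.9% and 31.2% in the wild-type-labelled ones. In the Flt3 gate the shares were 2.99%, 3.36% and 6.07% against 5.36%, 5.02%, 4.73% and 5.47%, and in the granule gate 0% to 0.431%. Among the remaining cells that the other gates left over, the share was 5.56% to 13.9%, and in the cycling stem gate 2.22% to 12.0%. In the list B pair it was 11.4% to 13.2% in the MHC class II gate and 7.19% to 8.33% in the megakaryocyte gate. The quiescent stem gate of that pair had the 26.6% and 31.2% given above. Knockout replicates 1 and 2 were the lowest libraries in both the stem and the Flt3 gate, while knockout replicate 3 lay within the wild-type-labelled range in the stem gate and was the highest in the Flt3 gate. No thinned cell showed all 7, and 45 of 23712 showed 5 or more, of which 37 were in the quiescent stem gate.

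Detection of single genes differed widely at this depth. In the quiescent stem gate a UMI of Trpc6 was found in 22.6% to 63.8% of the cells of a library, of Procr in 6.48% to 24.4%, of Pdzk1ip1 in 9.72% to 34.8%, of Fgd5 in 5.39% to 17.4%, of Ctnnal1 in 2.90% to 5.09%, of Sult1a1 in 2.08% to 5.51% and of Ifitm1 in 60.9% to 97.1%. The granule gate, which should lack stem cell transcripts, gave 0% to 4.55% for Trpc6, 0% to 2.27% for Procr and 0% to 0.284% for Sult1a1 at the same thinned depth. For Ctnnal1 (0.374% to 4.55% in the granule gate), Fgd5 (0% to 7.69%) and Ifitm1 (27.3% to 82.3%) the shares in the 2 gates overlapped across libraries. A single UMI of these genes does not by itself place a cell in either gate. The 7.69% of Fgd5 was 2 of 26 cells in WT replicate 3, where the stem share was 17.4%. In CPM the stem level was above the granule level in 7 of 7 libraries for each of these genes. In the erythroid gate, filled in list B only, a UMI of Pdzk1ip1 was found in 6.70% to 20.5% of thinned cells and of Trpc6 in 7.22% to 10.6%. In the megakaryocyte gate these shares were 26.4% to 26.6% and 34.7% to 41.7%, and in the MHC class II gate 15.8% to 22.9% and 17.1%. Unthinned, the median share of quiescent stem cells with 3 or more of the genes was 43.8%, against 24.6% thinned. The unthinned share was 57.3% to 63.4% in the megakaryocyte gate and 38.9% to 45.8% in the MHC class II gate, at unequal depth.

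**Figure D3:**
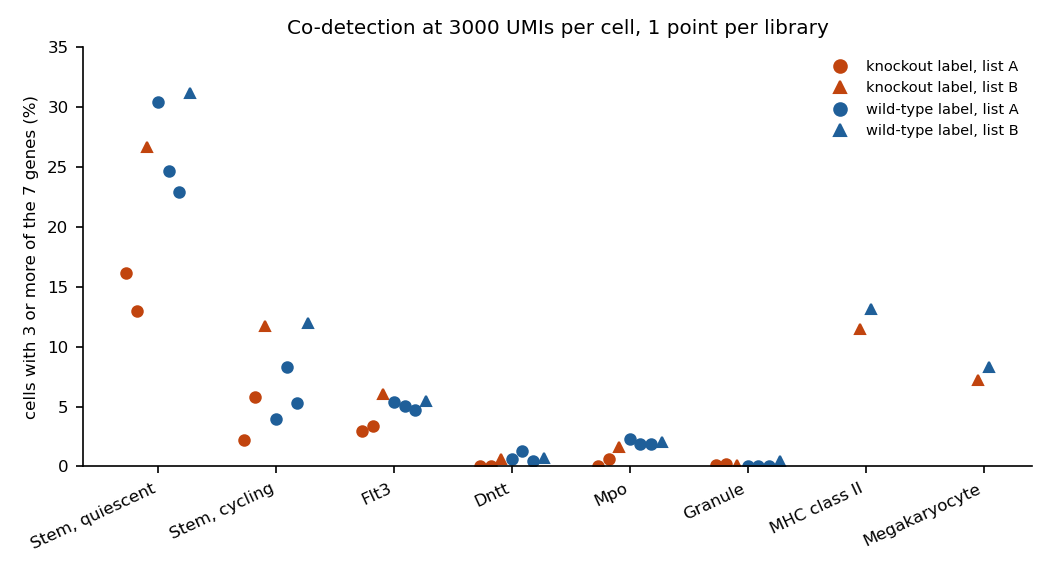
Share of cells with UMIs of 3 or more of the 7 genes, in percent, after thinning to 3000 UMIs per cell, by gate and with 1 point per library. The quiescent stem gate lies between 12.96% and 31.2%, the Flt3 gate between 2.99% and 6.07%, and the granule gate at or near 0. The cycling stem gate lies between 2.22% and 12.0%. In list B only, the MHC class II gate lies at 11.4% to 13.2% and the megakaryocyte gate at 7.19% to 8.33%.

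Across all kept cells, pairs of the genes met in 1 cell more often than their separate frequencies gave. Procr and Fgd5 were seen together in 155 thinned cells against 90.0 expected within libraries, 1.72 times as many, with the ratio above 1 in 7 of 7 libraries. Pdzk1ip1 and Trpc6 met in 768 cells against 395 (1.95 times), and Pdzk1ip1 and Sult1a1 in 86 against 25.9 (3.32 times). Pairs with Ifitm1, which most cells showed, stood between 1.04 and 1.18 times. Within the quiescent stem gate most ratios were nearer 1: Procr and Fgd5 met in 55 cells against 49.2 expected (1.12 times, above 1 in 5 of 7 libraries), and Fgd5 and Trpc6 in 113 against 105 (1.08 times). Pdzk1ip1 and Sult1a1 kept a ratio above 1 in 7 of 7 libraries, at 67 cells against 37.3 (1.80 times). Ctnnal1 and Sult1a1 gave 2.84 times on 14 cells, with 0 in at least 1 library.

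**Figure D4:**
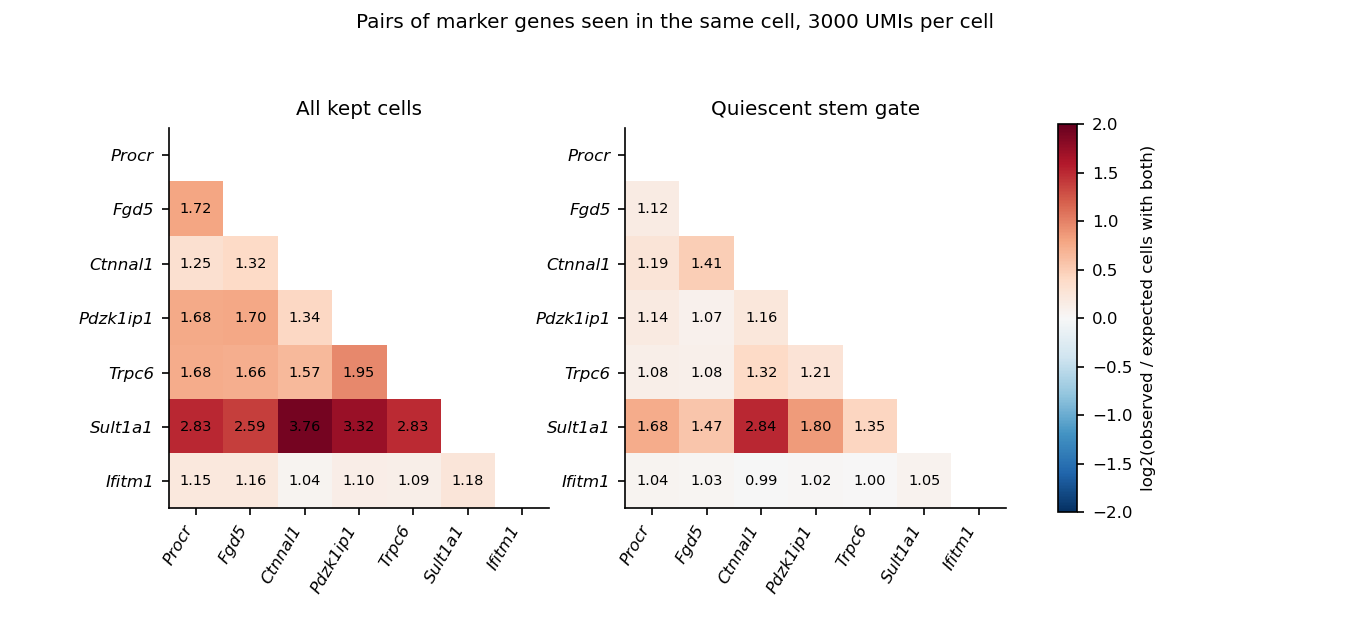
Cells in which both genes of a pair were seen, as a ratio of the number expected from each gene's frequency in the same library, summed over the 7 libraries, for all kept cells (left) and the quiescent stem gate (right). Colour is the log2 of the printed ratio; ratios of 1.72 for Procr with Fgd5 and 1.95 for Pdzk1ip1 with Trpc6 in all cells become 1.12 and 1.21 within the gate.

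Genes with the most similar pattern were found over 56 sums, the 8 gates in 7 libraries, by Pearson's r of log2 CPM centred within libraries, among 9221 genes. Trpc6 was closest to Prdm16 (r = 0.97) and Mllt3 (0.96), Fgd5 to Prkg1 (0.96) and Csgalnact1 (0.95), and Pdzk1ip1 to Epb41 (0.96) and Prkg1 (0.95). Procr was closest to Ifitm1 (0.93) and Atxn1 (0.93), and Ifitm1 to Lmo2 (0.95) and Procr. Ctnnal1 (Bex1, 0.81, and Pkn2, 0.79) and Sult1a1 (Cpne8, 0.84, and Pttg1ip, 0.83) had looser neighbours. Ctnnal1 and Sult1a1 also had the lowest mean levels of the 7 over these sums, 10.4 and 2.83 CPM. The part of low counts in their r was not tested. Among the 7, r ran from 0.49 for Ctnnal1 with Ifitm1 to 0.93 for Procr with Ifitm1. The sums share libraries and gate definitions, so these values are descriptions.

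In sums over all kept cells, none of the 7 genes passed the test between the labels, while edgeR called 1.11% of 14608 genes (2792 had an unadjusted p below 0.05). Procr had 9.79, 7.88 and 21.9 CPM in the knockout-labelled libraries and 16.8, 16.2, 29.8 and 36.3 in the wild-type-labelled ones, a mean of 13.2 ± 7.60 (SD, n = 3) against 24.8 ± 9.92 (SD, n = 4). Knockout replicate 3 lay above WT replicates 1 and 2, which were of the other list. The log2 difference, given here as the knockout label less the wild-type label, came to -0.98 (SE 0.23, edgeR adjusted p 0.0802), and DESeq2 called it (adjusted p 0.0049).

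Fgd5 had 6.82, 12.3 and 7.78 CPM under the knockout label and 19.3, 27.8, 25.4 and 11.2 under the wild-type label, so that knockout replicate 2 lay just above WT replicate 4. Its log2 difference was -1.02 (SE 0.22, edgeR adjusted p 0.0629). This value lay at the threshold: it passed by DESeq2 (adjusted p 0.0020), without a filter on low genes (edgeR adjusted p 0.0080), with a stricter cell filter (0.0425) and in list A alone (-1.28, edgeR adjusted p 0.0288), and the log2 ratio of the 2 list B libraries was -0.53. Trpc6 was the only one of the 7 whose groups did not overlap, at 16.3, 50.3 and 53.8 CPM against 122, 181, 68.3 and 56.1, in a comparison where 3.62% of genes were lower and 2.14% higher in this way. Its log2 difference of -1.28 had an SE of 0.62 (edgeR adjusted p 0.329) and rested on list A (-1.83), since the list B ratio was -0.060.

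The makeup of the libraries moved with the label as well. The granule gate held 34.5%, 27.0% and 11.7% of the kept cells of the knockout-labelled libraries and 6.59%, 3.75%, 1.73% and 2.62% of the wild-type-labelled ones. The summed endothelial genes over all kept cells were at 8.997, 16.3 and 22.4 CPM under the knockout label and at 24.1, 32.2, 38.1 and 38.6 under the wild-type label, without overlap. Of the 8, 4 were tested, 0 were called and all 4 estimates were negative, with a median log2 difference of -0.84, and Emcn gave 6230 of their UMIs (-1.13, edgeR adjusted p 0.0606). Their part in the Procr and Fgd5 values was not tested. Without the granule, monocyte, Mpo and secondary granule gates, an alternative added after seeing the data, the log2 differences were -0.39 for Procr (edgeR adjusted p 0.883), -0.38 for Fgd5 (0.592) and -0.52 for Trpc6 (1.00), and edgeR called 46 genes in place of 162. In a sum over cells, fewer cells with a transcript and less of it per cell cannot be told apart.

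Within the quiescent stem gate edgeR called 0.0888% of 10136 genes (424 had an unadjusted p below 0.05) and 0 of the 7, and DESeq2 0 of the 7 as well. From the CPM given above, the mean Procr level was 48.1 ± 19.1 (SD, n = 3) under the knockout label and 65.8 ± 22.3 (SD, n = 4) under the wild-type label, and the mean Fgd5 level 35.2 ± 19.0 against 57.0 ± 20.7. The log2 differences were -0.49 for Procr (SE 0.22, edgeR adjusted p 1.00), -0.61 for Fgd5 (SE 0.21, 0.811) and -0.94 for Trpc6 (SE 0.34, 1.00). The groups overlapped for all 7, where 0.740% of genes were higher and 0.513% lower without overlap. In list A the ribosomal share of the sum was 19.98% in knockout replicate 1, lowest in Trpc6 (109 CPM), and 11.3% in WT replicate 2, highest in it (608 CPM). The libraries between them did not keep that order, with 265 CPM at 13.2% in knockout replicate 2, 442 CPM at 16.2% in WT replicate 1 and 282 CPM at 16.6% in WT replicate 3. In list B the shares were 33.5% and 34.6%, with 135 and 166 CPM. With that share as a further covariate, added after seeing the data, Trpc6 passed (-0.82, SE 0.15, edgeR adjusted p 0.0110), as it did without the gene filter (-0.93, edgeR adjusted p 0.0038). Granule transcripts within the gate also moved with the label, at 342 to 408 CPM under the knockout label and 106 to 289 under the wild-type label. The gate gene Hlf stood in this gate at 471, 623 and 324 CPM under the knockout label and 671, 1078, 714 and 398 under the wild-type label. Over all kept cells Hlf stood at 107, 167 and 148 against 293, 430, 420 and 231. A gate cut on its UMIs need not hold like cells under both labels. The parts of granule transcripts and of Hlf in these values were not tested.

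Ctnnal1, Pdzk1ip1 and Sult1a1 were close to level between the labels in the quiescent stem gate. Ctnnal1 averaged 15.2 ± 2.40 CPM (SD, n = 3) against 15.4 ± 1.54 (SD, n = 4), and Sult1a1 12.97 ± 3.89 against 12.9 ± 2.02. Their log2 differences were -0.024 (SE 0.24) and 0.091 (SE 0.27), and that of Pdzk1ip1 was -0.11 (SE 0.18), each with an edgeR adjusted p of 1.00. A p that misses the threshold does not show that the labels are alike. Ctnnal1 and Pdzk1ip1 lie on the chromosome of B4galt1, 15.957 and 74.235 Mb from it.

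Ifitm1 was the only one of the 7 with higher estimates under the knockout label in all 4 sums: 0.72 over all kept cells, 0.54 in the quiescent stem gate, 0.61 in the cycling stem gate and 0.86 in the Flt3 gate (edgeR adjusted p 0.277, 1.00, 0.999 and 0.909). Over all kept cells it stood at 871, 356 and 1129 CPM against 362.5, 268, 515 and 840.2. Knockout replicate 2 lay within the wild-type-labelled values, and the estimates without knockout replicate 1 were 0.15, 0.093, 0.19 and 0.24. With the ribosomal share as a further covariate they were 0.21 over all kept cells, 0.34 in the quiescent stem gate, 0.47 in the cycling stem gate and 0.54 in the Flt3 gate, and none passed. Without knockout replicate 2 the Flt3 gate difference was 1.18 and passed (edgeR adjusted p 0.0360).

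In the cycling stem gate edgeR called 0% of 7862 genes, DESeq2 likewise 0, and 218 had an unadjusted p below 0.05. There 5 of the 7 genes passed the filter on low counts, with none called. In the Flt3 gate it called 0.232% of 11646 genes (543 had an unadjusted p below 0.05) and 0 of the 6 genes tested, with log2 differences from -1.003 for Trpc6 (SE 0.69) to 0.86 for Ifitm1, and DESeq2 called 0 of the 6. Procr (-0.70, edgeR adjusted p 0.0389) and Ifitm1 (0.83, edgeR adjusted p 0.0076) passed there without the filter on low genes. The label difference in the quiescent stem gate minus that in the Flt3 gate was tested directly, with the library as a block: edgeR called 0.0360% of 11097 genes and 0 of the 7 (404 genes had an unadjusted p below 0.05, and DESeq2 called 1 gene), at -0.33 for Fgd5 (SE 0.23), -0.30 for Pdzk1ip1 (SE 0.18), 0.088 for Procr (SE 0.18) and -0.045 for Trpc6 (SE 0.15). This fit did not let the list differ between gates, and with a term for that 0 of the 7 were called as well. A label difference particular to 1 of the 2 gates was not detected for any of the 7, which does not show that the 2 label differences are alike.

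**Figure D5:**
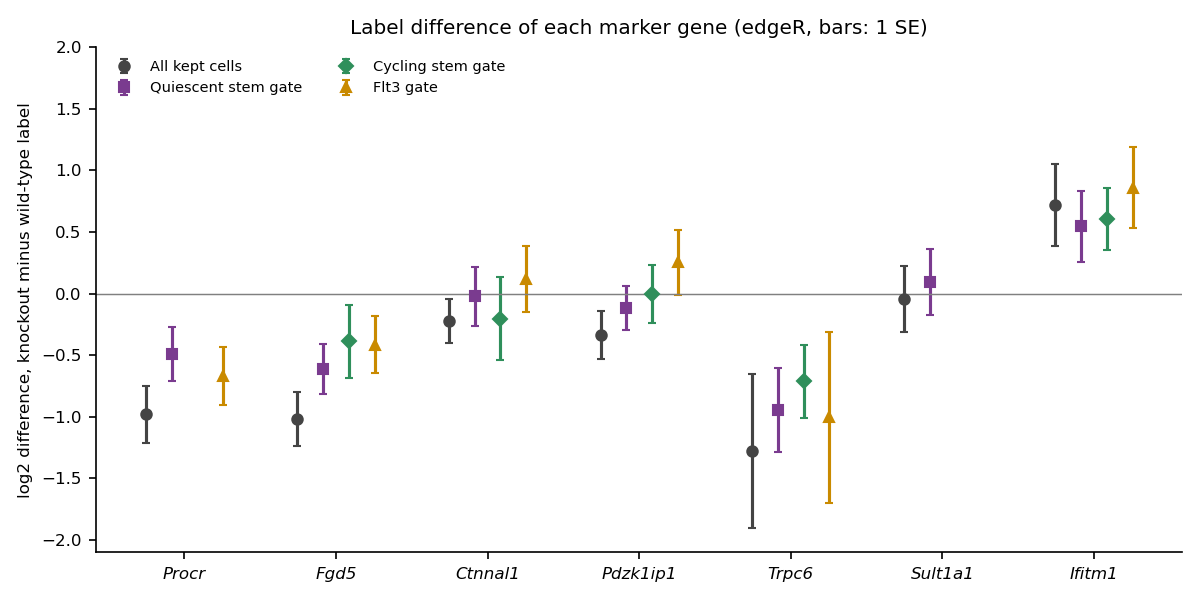
Log2 difference between the labels (knockout minus wild-type) for each gene in 4 sums, from edgeR with the barcode list as a covariate; bars are 1 SE. Procr, Fgd5 and Trpc6 lie below 0 and Ifitm1 above 0 wherever they were tested, none passed the threshold, and genes that failed the filter on low counts have no point (Procr and Sult1a1 in the cycling stem gate, Sult1a1 in the Flt3 gate).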

How the data were processed

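The files hold UMI counts per gene and cell, deposited by the authors as 1 matrix per library, with no normalization. Single Cell 3′ v2 reagents are named for every library, per the labels' protocols, but the barcodes fall into 2 lists, so the kit behind each library, and what else differs between the lists, is not settled here. Cell Ranger 7.0.0, Seurat 4.4.0 and the build mm10 are named, with no roles, in the submitters' processing notes; the cell caller's settings are not given in the sources used here. Cells with at least 1000 UMIs, 500 genes and at most 10% mitochondrial UMIs were kept. No doublet caller was run and doublets remain; leaving out the 5% of cells with most UMIs is an alternative. UMIs were summed per library and gate, and sums were tested with edgeR 4.0.16 (quasi-likelihood, TMM scaling, filterByExpr, robust, R 4.3.3), the barcode list as covariate, over all genes with Benjamini-Hochberg adjustment at 0.05. The comparison of gates had the library as a block. DESeq2 1.42.0 was an alternative. The edgeR steps were tested on simulated data. Other steps used Python 3.11.15.

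The 7 genes, the gates and the gene lists were chosen with earlier results of these data known. Named genes are the 7, B4galt1, the gate genes, the 2 nearest patterns to each of the 7 (mean CPM of at least 10) and, where a list had a called gene, its 3 genes with the smallest p, of which some are not reported here; Neo1, Ubl3 and single endothelial and stromal genes were named after their values were seen. Unscaled totals, the ribosomal covariate, the sums without myeloid gates and the list-by-gate term were added after seeing the data. Gene positions come from GENCODE on GRCm38.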

Additional observations from a re-analysis of the deposited data

Results flagged for a closer look

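Among 29 groups of 4 libraries checked for a value far from the others, 1 stood out, and chance gives about 1 in 20. It was Pdzk1ip1 in the quiescent stem gate of WT replicate 4, at 145 CPM against 55.6 to 65.8 in the other wild-type-labelled libraries, with a gap of 0.886 of the group's range. WT replicate 4 was the only wild-type-labelled library of list B, and the knockout-labelled library of that list stood at 156 CPM. The part of the list in this value was not tested.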

How the results depend on the processing

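All 7 genes had higher estimates in the quiescent stem gate under every alternative run, and all calls held but that of Ctnnal1 in list A alone (0.45, edgeR adjusted p 0.107). Sizes fell with gates on thinned cells, for Sult1a1 from 3.87 to 2.55, Pdzk1ip1 from 2.00 to 1.38 and Trpc6 from 1.77 to 1.16. Label differences near 0 changed sign often, and the cause was not tested. Counts of genes called between labels were 162 over all kept cells, 9 in the quiescent stem gate, 0 in the cycling stem gate and 27 in the Flt3 gate, and 4 for the difference between gates. Without the barcode list as covariate they were 0 in all label comparisons, and Pdzk1ip1 had 0.13 (all kept cells), 0.10 (quiescent) and 0.13 (cycling), Sult1a1 0.0029 (all kept cells) and Ctnnal1 0.0059 (quiescent). In list A alone they were 362 over all kept cells, with 1 of the 7 called, 9 in the cycling gate and 10 for the difference between gates; Ctnnal1 (0.044) and Sult1a1 (-0.060) in the quiescent gate and Trpc6 (0.32) between gates changed sign. DESeq2 called 856 genes and 2 of the 7 over all kept cells, 21 (quiescent), 58 (Flt3) and 1 (between gates), with Trpc6 at 0.0086 between gates. With no gene filter 547 genes and 1 of the 7 were called over all kept cells, 72 and 1 (quiescent), 15 (cycling), 146 and 2 (Flt3) and 9 (between gates), with Pdzk1ip1 at 0.0094 (cycling) and Trpc6 at 0.021 (between gates). With the ribosomal share added, 98, 33, 11 and 44 genes were called in the 4 sums, 1 of the 7 in the quiescent gate, with Sult1a1 at 0.032 (all kept cells) and Pdzk1ip1 at 0.021 (cycling). Without the myeloid gates 46 genes were called and Ctnnal1 (0.13), Pdzk1ip1 (0.36) and Sult1a1 (0.46) changed sign. A stricter cell filter called 1 of the 7 over all kept cells and gave Ctnnal1 0.081 and Sult1a1 -0.072 in the quiescent gate. Thinned equal cells gave 4 genes (quiescent) and 1 (cycling), Ctnnal1 0.022 over all kept cells and Pdzk1ip1 -0.17 in the Flt3 gate. Gates on thinned cells gave 6 genes (cycling) and 2 (between gates), Pdzk1ip1 0.13 (quiescent) and 0.22 (cycling), and Fgd5 0.098 and Sult1a1 0.076 between gates. Unscaled totals gave 14 genes (quiescent), and leaving out the cells with most UMIs gave Pdzk1ip1 0.014 (cycling). Thinned to 2000 UMIs, 12.2% of quiescent stem cells showed 3 or more of the 7, and 43.8% unthinned, against 24.6%.

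The replicate block left 1 gene called over all kept cells and 5 in the quiescent gate, and Pdzk1ip1 (0.26, 0.46 and 0.41 in all kept cells, quiescent and cycling), Sult1a1 (0.20, all kept cells) and Ctnnal1 (0.070 quiescent, -0.096 Flt3) changed sign. Deviations of same-numbered libraries from their label means correlated at 0.53, 0.72 and -0.36. Knockout replicate 3 and WT replicate 4 are the list B libraries, so these deviations also hold the list difference. They cannot show whether the numbers pair the libraries.

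Leaving out 1 library at a time gave 16 to 349 genes over all kept cells (349 without knockout replicate 3 and 348 without WT replicate 4, where Fgd5 passed, 91 without knockout replicate 1, and 58, 63 and 16 without WT replicates 1, 2 and 3), 0 to 13 in the quiescent, 0 to 10 in the cycling and 10 to 51 in the Flt3 gate, and 1 to 20 between gates. It called 0 to 1 of the 7 over all kept cells and in the Flt3 gate. Sult1a1 ranged from -0.15 to 0.11 (all kept cells), -0.055 to 0.24 (quiescent) and -1.30 to 0.73 (between gates). Ctnnal1 ranged from -0.10 to 0.048 (quiescent), -0.55 to 0.021 (cycling), -0.21 to 0.34 (Flt3) and -0.65 to 0.33 (between gates). Pdzk1ip1 ranged from -0.21 to 0.083 (cycling) and Trpc6 from -0.20 to 0.28 (between gates). Depth limits Sult1a1 most, with 597 UMIs in all kept cells.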

Other observations

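Relatives of the 7 genes did not all share their difference between the quiescent stem gate and the Flt3 gate. In the Ifitm family, whose proteins restrict virus entry, 4 of 7 members were tested and 3 were higher: Ifitm7 (log2 difference 1.08), Ifitm1 (0.51) and Ifitm3 (0.32), while Ifitm2 had 0.051 (edgeR adjusted p 0.520). In the Fgd family of exchange factors 5 of 6 were tested, with Fgd5 higher and Fgd2 lower (-0.61, edgeR adjusted p 1.83e-07). Of the alpha-catenin relatives 2 of 4 were tested, Ctnnal1 higher and Ctnna1 at -0.0066 (edgeR adjusted p 0.963). Trpc6 and Sult1a1 were the single members of their families to pass the filter on low counts. Of 24 interferon response genes 21 were tested, 6 were higher and 4 lower, where 36.8% of all genes were called and 17.7% were higher, with a median of -0.012, and among those with the smallest p were Ifi27 (-0.48) and Psmb9 (-0.36).

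Between the labels over all kept cells, Ifitm7 passed the test (log2 difference 0.89, SE 0.15, edgeR adjusted p 0.0303), the estimate for Ifitm1 was 0.72 without passing, and in the quiescent stem gate Ifitm7 had 0.22 (SE 0.24, edgeR adjusted p 1.00).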
